A study of Mus musculus with 24 samples.

Results

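Ketone body synthesis and export was followed in mouse liver through 5 genes, Acat1, Bdh1, Bdh2, Slc16a1 and Slc16a6, which were chosen by name from the 34945 named genes of the deposited expression table. Livers came from mice kept for 3 weeks on regular (RD) or high-fat (HFD) food and fasted for 4 h before RNA was taken for sequencing, and each of 8 groups had 3 libraries. Mice of the group called WT carried loxP sites in both genes (FoxO1lox/lox and PPARαlox/lox), with no Cre stated. The knockouts were made with Albumin-Cre, a transgene active in hepatocytes, and liver cells in which it is not active keep both genes. LFKO livers are labelled FoxO1-/-, LPKO livers PPARα-/- and LFPKO livers both. The labels do not say whether the libraries of a group are separate mice; p-values here measure only how far these samples spread, which may be technical.

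In the fasting liver, acetyl-CoA from fatty acid oxidation is turned into ketone bodies, the water-soluble fuels acetoacetate and β-hydroxybutyrate. ACAT1, a mitochondrial thiolase, joins acetyl-CoA units to acetoacetyl-CoA in a reversible step that also serves isoleucine breakdown. Acetoacetate is made from it in further mitochondrial steps, and BDH1, an enzyme of the inner mitochondrial membrane, reduces it to β-hydroxybutyrate. BDH2 is a cytosolic relative of the short-chain dehydrogenase family. Hepatocytes hold very little of the enzyme that would use ketone bodies and export them. SLC16A1 (MCT1) carries lactate, pyruvate and ketone bodies together with protons. A role in ketone body export from liver has been proposed for SLC16A6 (MCT7). PPARα is the nuclear receptor that drives fatty acid oxidation during fasting, and FoxO1 is a transcription factor held in check by insulin.

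Expression is given as TPM, a share of the library's transcripts that is already divided by transcript length, so levels of different genes can be compared. Bdh1 and Acat1 were the abundant members, with medians of 126 and 122 TPM over 24 libraries, and ranges of 97.7 to 182 TPM and 73.8 to 206 TPM. Bdh2 ranged from 6.64 to 20.0 TPM (median 15.1), Slc16a1 from 6.15 to 19.4 TPM (median 12.3) and Slc16a6 from 1.76 to 4.62 TPM (median 3.09). Slc16a6 was the weakest member, and its values also bear an overlap: on GRCm38 (GENCODE M21) it shares 1959 bases of its span with Amz2 and 225 with Arsg, both on the opposite strand, at 6.0 to 11.0 and 5.0 to 13.0 TPM. Bdh1 shares 1901 bases with the antisense gene Gm15743. The use of strand in the authors' quantification is not stated.

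The genes lie on 4 chromosomes (GRCm38, GENCODE M21). Acat1 spans chromosome 9, 53580522 to 53610382, on the minus strand, and Bdh1 chromosome 16, 31422280 to 31458901, on the plus strand. Bdh2 and Slc16a1 are both on the plus strand of chromosome 3, at 135281221 to 135304426 and 104638668 to 104658462. Slc16a6 spans chromosome 11, 109450855 to 109473598, on the minus strand.

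In the averages below, Bdh2 and Slc16a1 passed the threshold in the same 2 directions, higher without PPARα and lower on the high-fat diet. The diet result of Bdh2 did not pass after the scaling described below. That of Slc16a1 for PPARα did not pass in 9 of 24 fits that each left out a library. The 250 bases before the RefSeq start sites of both genes are shown (GRCm38.p6, plus strand, 5′ to 3′). The Slc16a1 stretch is chr3:104638414-104638663 and the Bdh2 stretch chr3:135280971-135281220; neither overlaps an exon of the annotation. Capitals mark an E-box (CACGTG) and a TATAA match with the base before it, both in the Slc16a1 stretch; these motifs were looked for after the sequences had been read.
Slc16a1: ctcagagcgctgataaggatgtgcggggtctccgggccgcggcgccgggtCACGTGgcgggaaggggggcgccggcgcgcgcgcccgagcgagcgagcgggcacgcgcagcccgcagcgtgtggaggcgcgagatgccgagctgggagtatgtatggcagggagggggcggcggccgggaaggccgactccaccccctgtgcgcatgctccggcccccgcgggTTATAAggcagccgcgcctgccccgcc
Bdh2: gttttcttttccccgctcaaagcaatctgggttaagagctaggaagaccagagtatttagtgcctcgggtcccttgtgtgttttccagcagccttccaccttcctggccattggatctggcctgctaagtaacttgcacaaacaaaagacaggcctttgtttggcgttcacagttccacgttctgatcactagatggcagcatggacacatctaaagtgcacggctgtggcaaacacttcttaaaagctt

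Each motif was looked for as a fixed string in windows of 250 bases, so variant and more distant sites were not searched. The fixed string for the PPAR response element (DR1) is in only 0.0335% of all windows, so its absence from a few is uninformative. The absences given below therefore do not show that these genes lack PPAR or FoxO sites. The stretches differ in base composition. That of Slc16a1 is 76.4% G and C with 37 CpG pairs, against medians of 52.4% and 6 over 32851 mouse windows of the same length, and that of Bdh2 is 48.0% G and C with 5 CpG pairs. On both strands, the E-box CACGTG, which begins at base -200 from the Slc16a1 start site, occurs in 6.02% of all windows, and TATAA in 22.8%. The FoxO core GTAAACA (3.17% of windows), the PPAR response element (DR1, 0.0335%) and its half-site AGGTCA (14%), of which it holds a pair, were found in none of the windows of Slc16a1, Bdh2 and Bdh1, the 3 of 5 members with an entry in the RefSeq table; Acat1 and Slc16a6 are the others.

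Before the members were compared, the targeted genes were examined. Foxo1 was 0.250 to 0.484 TPM in the 12 libraries labelled LFKO or LFPKO and at least 4.06 TPM in the other 12. Ppara stood at 57.5 to 87.3 TPM in LPKO and LFPKO libraries and at 37.1 to 68.8 TPM elsewhere. Its TPM counts all transcripts of the gene and the excised stretch is not stated, so this value says nothing of the PPARα label. All 10 hepatocyte markers were present, summing to 40351 to 95951 TPM, while 9 lymphocyte markers summed to at most 4.16 TPM and 5 adipocyte markers to at most 1.06 TPM. The major urinary protein (Mup) genes took 20.1 to 30.7% of the TPM in HFD WT and 6.51 to 17.7% in HFD LFKO libraries, against 5.06 to 14.4% in RD libraries, and the 3 HFD LFKO libraries lay apart from each other on the first principal component (22.0, -3.53 and -14.9). A share this large lowers the TPM of every other gene, so results that depend on it are also given after scaling by median-of-ratios factors.

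**Figure D1:**
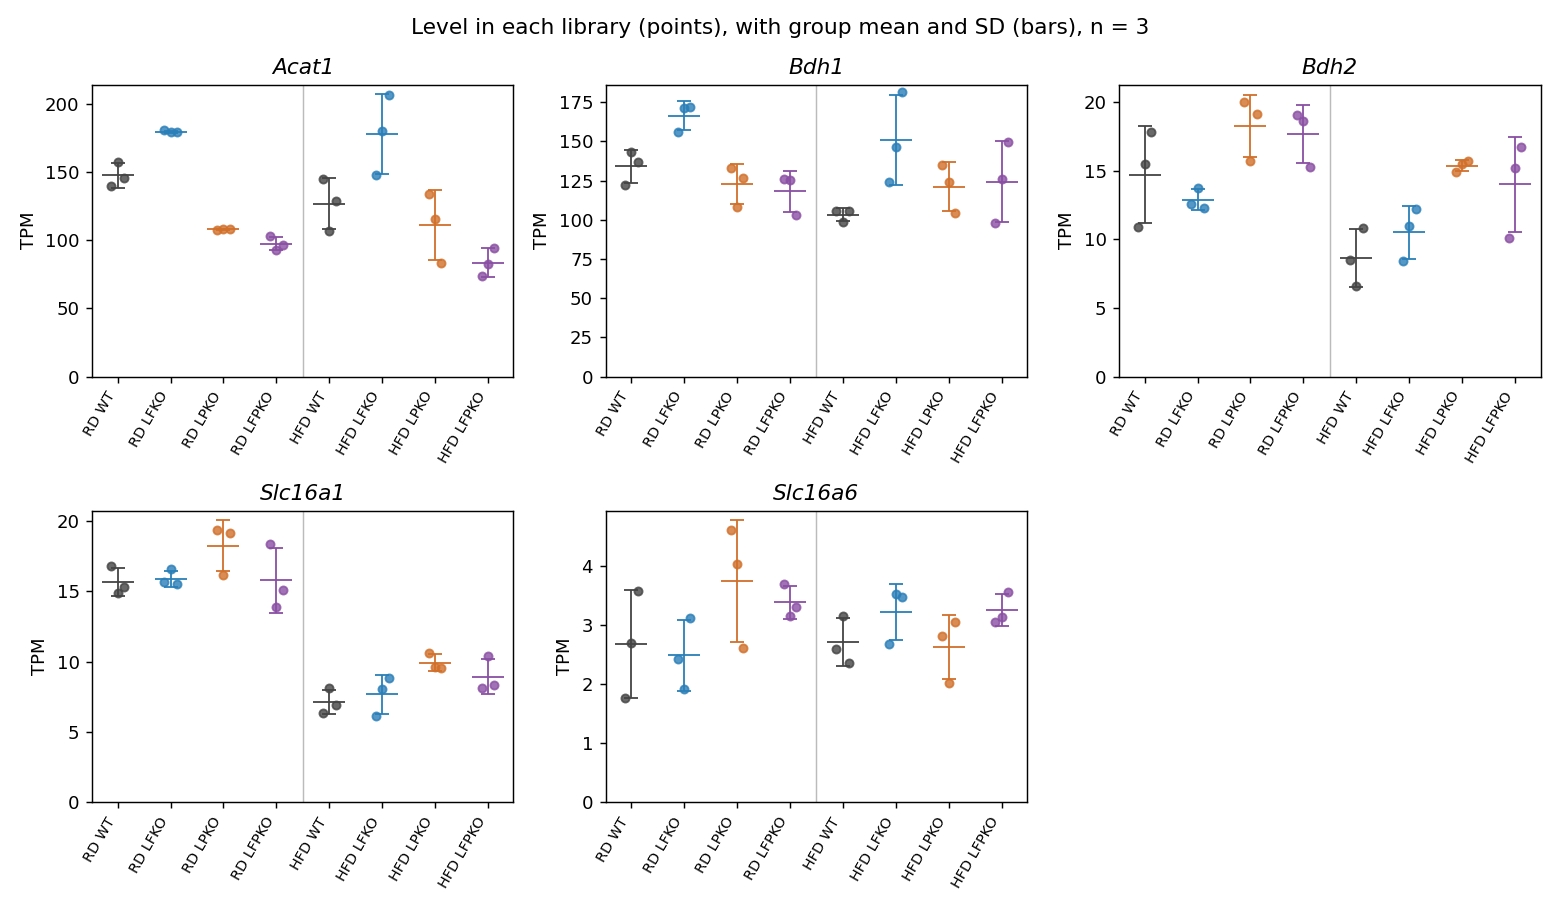
TPM of the 5 genes (y axis, starting at 0) in each library (points) of the 8 groups (x axis, RD left and HFD right of the line), with the group mean and SD as bars, n = 3. Acat1 is low in RD LPKO, RD LFPKO and HFD LFPKO livers, while HFD LPKO overlaps HFD WT, and every HFD library of Slc16a1, at 10.6 TPM or less, sits below every RD library, at 13.9 TPM or more.

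Livers labelled as lacking PPARα had less Acat1 and more Bdh2 than livers that kept it. Averaged over both diets, with and without FoxO1, Acat1 was 158 TPM in the 12 WT and LFKO libraries and 100.1 TPM in the 12 LPKO and LFPKO libraries, while Bdh2 went from 11.7 to 16.4 TPM and Slc16a1 from 11.6 to 13.2 TPM. Changes are given as log2 fold changes ± SE of TPM + 1, a scale that understates changes of weakly expressed genes, and a gene was called where its limma p, adjusted by Benjamini-Hochberg over the 10551 genes with a mean of at least 1 TPM, was under 0.05. By this measure 3 of the 5 members were called, 1 lower and 2 higher, where 17% of all tested genes were called, 7.96% lower and 9.04% higher. The enzymes and transporters thus did not move as a block, and the direction differed between the thiolase and the other called members. In a piece of whole liver, less RNA per cell and fewer cells of a type cannot be told apart.

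Acat1, the thiolase at the entry of the pathway, had a log2 fold change of -0.65 ± 0.07 (95% interval -0.81 to -0.50, limma adjusted p = 1.44e-06). On the regular diet it stood at 140, 157 and 146 TPM in the WT livers, 181, 179 and 179 TPM in LFKO, 108, 108 and 108 TPM in LPKO, and 103, 93.1 and 96.5 TPM in LFPKO livers. All 6 RD libraries without PPARα were below all 6 with it, and 7.44% of all tested genes were without overlap in this way. On the high-fat diet Acat1 stood at 145, 107 and 129 TPM in WT, 148, 180 and 206 TPM in LFKO, 134, 116 and 83.3 TPM in LPKO, and 73.8, 82.7 and 94.6 TPM in LFPKO livers. There the LPKO values overlapped those of WT and the LFPKO values did not, as held for 16% of genes. Within each diet the average fell by 0.66 ± 0.10 (RD, limma adjusted p = 1.67e-04, 11.9% of genes called) and by 0.64 ± 0.10 (HFD, limma adjusted p = 2.80e-04, 6.47% called).

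The single comparisons of Acat1 differed in size, and those against WT livers on a diet share the 3 WT libraries. Where FoxO1 was already absent, LFPKO against LFKO livers gave -0.88 ± 0.15 on the regular diet (limma adjusted p = 6.60e-04, 5.08% of genes called) and -1.08 ± 0.15 on the high-fat diet (limma adjusted p = 4.79e-05, 10.6% called), so LFPKO livers held 54.3% and 47.0% of the LFKO level. Where FoxO1 was present, LPKO against WT livers gave -0.45 ± 0.15 on the regular diet (0 of 5 members called by limma, 1 at an unadjusted p under 0.05, 5.85% of genes called), with no overlap of the libraries (as for 29.3% of genes) but an adjusted p of 0.0827 (limma; -0.47 and adjusted p = 0.00252 after scaling), and -0.21 ± 0.15 on the high-fat diet (limma adjusted p = 0.471; -0.34 and adjusted p = 0.029 after scaling). The HFD value was -0.0152 without HFD LPKO replicate 3, -0.11 without HFD WT replicate 1, -0.36 without HFD LPKO replicate 1 and -0.32 without HFD WT replicate 2. Against WT livers, LFPKO livers were lower by -0.59 ± 0.15 on either diet (limma adjusted p = 0.0159 on RD and 0.0273 on HFD, with 7.45% and 3.09% of genes called). With 1 library left out, the RD value ran from -0.63 to -0.55 and the HFD value from -0.71 to -0.49. Such a fit also has less power, so a lost call need not mean that the fall rests on that library. The RD call was lost without RD WT replicate 2 or RD LFPKO replicate 2 or 3 (limma adjusted p 0.0551 to 0.0649), and the HFD call without HFD WT replicate 1 or 3 or HFD LFPKO replicate 1 or 2 (0.0861 to 0.150). In LFPKO against LPKO livers, which differ in FoxO1 alone, limma called 0 of 5 members on either diet (0 and 1 at an unadjusted p under 0.05; 0.123% and 0.351% of genes called). Acat1 was at -0.15 ± 0.15 on the regular diet (limma adjusted p = 1) and -0.38 ± 0.15 on the high-fat diet (limma adjusted p = 0.325); without HFD LPKO replicate 3 the latter became -0.58 (limma adjusted p = 0.0266).

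Whether both deletions together did more or less to Acat1 than the sum of each alone was tested as a departure from additivity. On the high-fat diet the departure was -0.87 ± 0.21 (limma adjusted p = 0.0136), with 1 of the 5 members called and 11.2% of all genes. Acat1 was called higher than WT in LFKO livers as deposited but not after scaling (0.23, limma adjusted p = 0.179), and lower in LFPKO livers under both. HFD LPKO livers were called against WT only after scaling or without Mup and mitochondrial-genome transcripts. Of the genes called for this departure, 1109 were lower and 70 higher (median of all genes -0.24). The value was -0.57 after scaling (limma adjusted p = 0.0146), and the call was lost without HFD WT replicate 2 (-0.75, limma adjusted p = 0.0505) and where only the 4 HFD groups entered the model (limma adjusted p = 0.126). On the regular diet the departure was -0.43 ± 0.21 (limma adjusted p = 0.711), and 0 of the 5 members were called by limma, also at an unadjusted p under 0.05, with 0.256% of all genes.

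Bdh2, the cytosolic dehydrogenase, was higher without PPARα by 0.47 ± 0.09 (95% interval 0.28 to 0.67, limma adjusted p = 0.00113). On the regular diet it stood at 10.9, 15.5 and 17.8 TPM in WT, 12.6, 13.8 and 12.3 TPM in LFKO, 20.0, 15.7 and 19.1 TPM in LPKO, and 19.1, 18.7 and 15.3 TPM in LFPKO livers. On the high-fat diet it stood at 8.49, 6.64 and 10.9 TPM in WT, 8.43, 11.0 and 12.2 TPM in LFKO, 14.9, 15.5 and 15.7 TPM in LPKO, and 10.1, 15.2 and 16.8 TPM in LFPKO livers. The LPKO libraries were all above WT and LFKO libraries on the high-fat diet (against WT, 20.7% of genes were without overlap), while on the regular diet they overlapped those of WT. The HFD average was 0.57 ± 0.13 (limma adjusted p = 0.00875) and the RD average 0.37 ± 0.13 (limma adjusted p = 0.0794). HFD LPKO livers had 1.78 times the level of HFD WT livers (0.78 ± 0.19, limma adjusted p = 0.0189; 1 of 5 members and 4.73% of genes called), a call lost without HFD WT replicate 2 or HFD LPKO replicate 1 or 2 (limma adjusted p 0.0570 to 0.144). HFD LFPKO livers differed from WT by 0.63 ± 0.19 (limma adjusted p = 0.0792); the call was made after scaling (0.55, limma adjusted p = 0.0224).

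Slc16a1, the proton-coupled transporter, was higher without PPARα by 0.20 ± 0.06 (95% interval 0.07 to 0.34, limma adjusted p = 0.0306). On the high-fat diet the average was 0.32 ± 0.09 (limma adjusted p = 0.0389) against 0.09 ± 0.09 on the regular diet (limma adjusted p = 0.582); the difference between the diets passed for neither LPKO (0.22 ± 0.18, limma adjusted p = 0.830) nor LFPKO livers (0.28 ± 0.18, limma adjusted p = 0.767). The call on the pooled average was lost in 9 of 24 fits that each left out a library, namely RD WT replicate 2, RD LFKO replicates 1 and 3, RD LPKO replicates 1 and 3, RD LFPKO replicate 1, HFD WT replicate 1, HFD LPKO replicate 1 and HFD LFPKO replicate 2 (0.18 to 0.20, limma adjusted p 0.0507 to 0.0625). HFD LPKO against HFD WT gave 0.43 ± 0.13 with no overlap of the libraries, as for 20.7% of genes (limma adjusted p = 0.0570).

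Bdh1 and Slc16a6 did not pass for the PPARα deletion. Bdh1, the mitochondrial dehydrogenase, differed by -0.17 ± 0.07 (95% interval -0.33 to -0.02, limma adjusted p = 0.126), and the call was made after scaling (-0.16, limma adjusted p = 0.0205). Within a diet, Bdh1 was at -0.31 ± 0.11 on RD (limma adjusted p = 0.0584) and at -0.03 ± 0.11 on HFD (limma adjusted p = 0.945). Slc16a6 differed by 0.17 ± 0.09 (limma adjusted p = 0.223). Its highest mean was in RD LPKO livers, with 4.62, 4.04 and 2.61 TPM, against 1.76, 2.71 and 3.58 TPM in RD WT livers (0.37 ± 0.18, limma adjusted p = 0.275). Group ranges of Slc16a6 overlapped for all 7 pairs of neighbours in the order of the 8 group means. Kupffer cell markers were followed beside these results: 0 of 10 were called for the PPARα deletion (median -0.25, all genes -0.00), none was at 0, and they summed to 72.1 to 227 TPM in libraries with PPARα and 59.9 to 187 TPM without. By group, their median was -0.77 in RD LPKO and -0.71 in RD LFPKO livers against WT (1 of 10 lower in each), and -0.05 in HFD LPKO and 0.37 in HFD LFPKO livers (0 of 10 called by limma in each). Of the mitochondrial-genome transcripts, 3 of 13 were lower without PPARα (median -0.14). The part of both in the results was not tested.

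**Figure D2:**
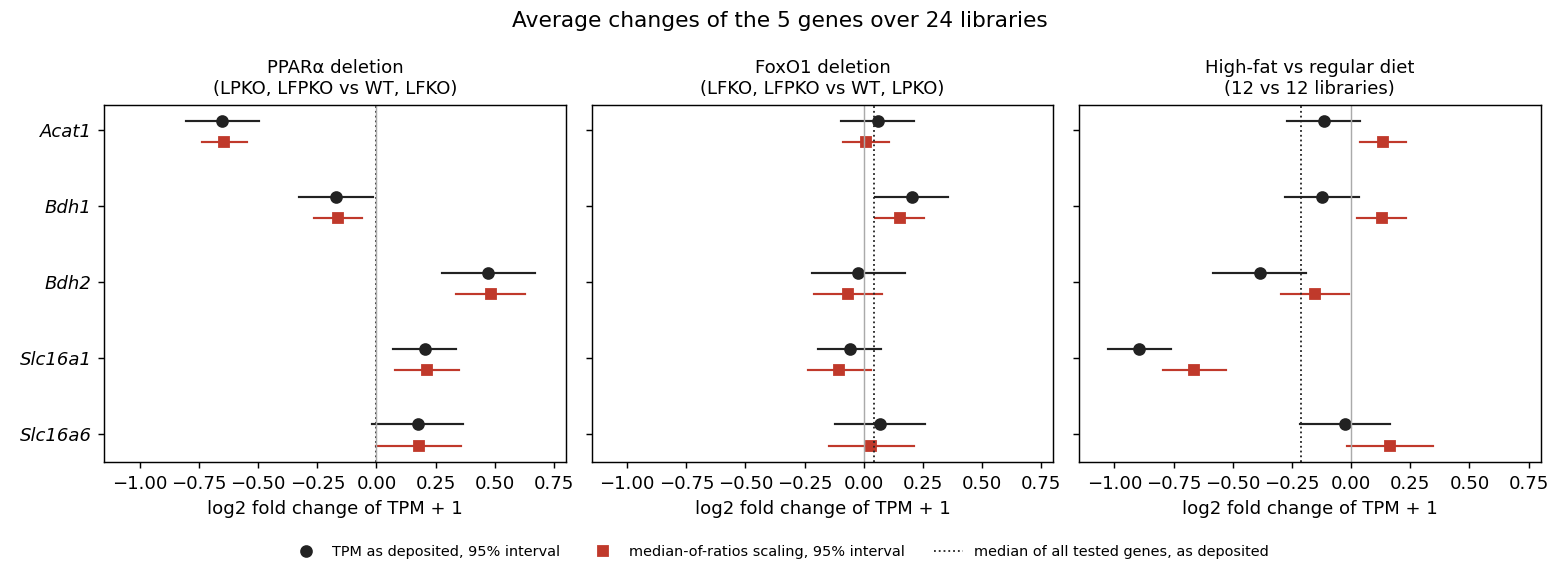
Log2 fold change of TPM + 1 (x axis) of each gene (y axis) with 95% interval for the PPARα deletion, the FoxO1 deletion and the diet, each averaged over the other factors in 24 libraries, from TPM as deposited (circles) and after median-of-ratios scaling (squares). Acat1 lies left of 0 for PPARα under both scalings, while the diet values of Acat1, Bdh1 and Slc16a6 cross from below to above 0.

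The FoxO1 deletion passed for no member when averaged over both diets and both PPARα states. Limma called 0 of 5, with 1 of 5 at an unadjusted p under 0.05, against 3.94% of all genes called. That 1 was Bdh1 (0.20 ± 0.07, 95% interval 0.05 to 0.36, limma adjusted p = 0.139; 0.24 and limma adjusted p = 0.0361 without HFD LFPKO replicate 1). Acat1 was at 0.06 ± 0.07 (95% interval -0.09 to 0.21, limma adjusted p = 0.742; -0.02 without Mup and mitochondrial-genome transcripts). For Acat1 this average joins values of opposite sign. LFKO against WT livers gave 0.28 on RD and 0.48 on HFD, and LFPKO against LPKO livers -0.15 and -0.38. Slc16a1 had an interval of -0.19 to 0.07 and Bdh2 of -0.22 to 0.17.

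In LFKO against WT livers, members were called on the high-fat diet only, though the difference between the diets did not pass (given below). Acat1 and Bdh1 were higher than in HFD WT livers by 0.48 ± 0.15 and 0.53 ± 0.15 (limma adjusted p = 0.0365 and 0.0266), 2 of 5 members where 13.5% of genes were called, 1343 of them higher and 77 lower. Bdh1 stood at 105, 98.7 and 106 TPM in HFD WT and 124, 146 and 182 TPM in HFD LFKO livers, with no overlap, as held for 26.7% of genes. Part of this shift was shared by the whole table: the median of all tested genes was 0.21. After scaling, which brought that median to -0.01 and the count of calls to 432, Acat1 was at 0.23 (limma adjusted p = 0.179) and Bdh1 at 0.27 (limma adjusted p = 0.131). Both calls were also lost without HFD WT replicate 2 and without HFD LFKO replicate 2 or 3, and that of Acat1 without HFD WT replicate 3 (limma adjusted p 0.0587 to 0.218). Stellate cell markers were higher in the same livers, with 3 of 8 tested called, none of 10 at 0, and sums of 87.1 to 132 TPM in HFD WT and 176 to 194 TPM in HFD LFKO libraries. Hepatocyte markers also summed higher, from 43054 to 57268 TPM in HFD WT and from 70327 to 95594 TPM in HFD LFKO libraries, with 1 of 10 called. The part of both marker lists in the result was not tested.

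On the regular diet Acat1 and Bdh1 were higher in LFKO than in WT livers in every library, Bdh1 at 156, 171 and 172 TPM against 122, 143 and 137 TPM. Neither passed: the changes were 0.28 ± 0.15 for Acat1 and 0.31 ± 0.15 for Bdh1 (limma adjusted p = 0.366 and 0.320). After scaling they were 0.26 and 0.29 (limma adjusted p = 0.118 and 0.107), beside 0.23 and 0.27 on the high-fat diet. The difference between the diets passed for neither gene: LFKO by diet was 0.20 for Acat1 and 0.21 for Bdh1 (limma adjusted p = 0.689 and 0.673). In RD LFKO against WT livers limma called 0 of 5 members, with 1 of 5 at an unadjusted p under 0.05. There 1.67% of all genes were called, and groups without overlap were found for 26.8% of genes. In the RD livers without PPARα, Bdh1 stood at 133, 108 and 127 TPM (LPKO) and 126, 126 and 103 TPM (LFPKO). LFPKO libraries were all below LFKO libraries, as 30% of genes were without overlap here (-0.50 ± 0.15, limma adjusted p = 0.0604), a call made after scaling (-0.46, limma adjusted p = 0.00536).

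**Figure D3:**
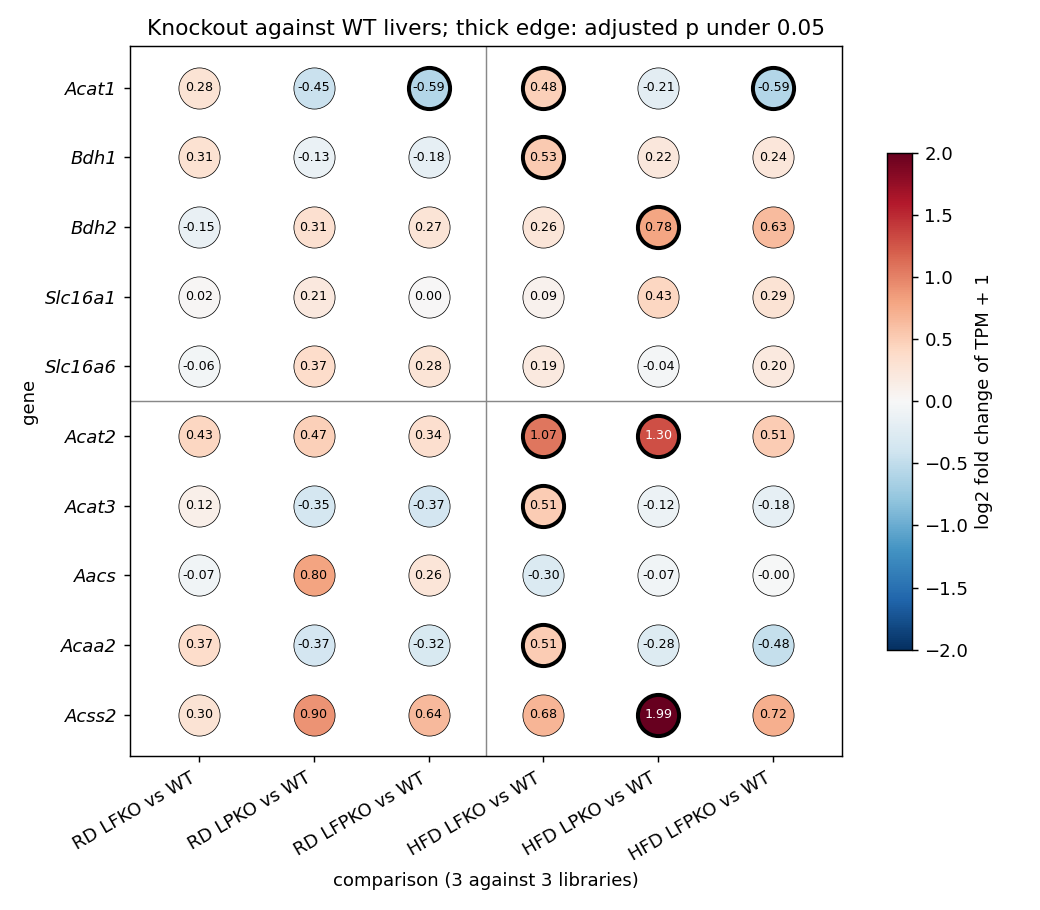
Log2 fold change of TPM + 1 (colour and printed value) of the 5 genes (above the line) and of related thiolase and acetyl-CoA or acetoacetyl-CoA ligase genes (below it) in each knockout against WT livers of the same diet (x axis, 3 against 3 libraries, the WT libraries shared by the 3 comparisons of a diet); thick edges mark a limma adjusted p under 0.05. Acat1 is called lower in the LFPKO livers of both diets.

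The transporter gene Slc16a1 was lower on the high-fat diet in every genotype. Its log2 fold change was -0.90 ± 0.06 over 12 HFD against 12 RD libraries (95% interval -1.03 to -0.76, limma adjusted p = 5.10e-09), from a mean of 16.4 to 8.42 TPM. On the regular diet it stood at 16.8, 14.9 and 15.3 TPM in WT, 15.6, 16.6 and 15.5 TPM in LFKO, 19.4, 16.2 and 19.2 TPM in LPKO, and 18.4, 13.9 and 15.1 TPM in LFPKO livers. On the high-fat diet it stood at 6.36, 8.10 and 6.94 TPM in WT, 6.15, 8.09 and 8.81 TPM in LFKO, 10.6, 9.59 and 9.55 TPM in LPKO, and 8.11, 10.4 and 8.34 TPM in LFPKO livers. No HFD library reached the lowest RD library, as held for 2.1% of all tested genes. The fall was called in each genotype: -1.04 ± 0.13 in WT, -0.97 ± 0.13 in LFKO, -0.82 ± 0.13 in LPKO and -0.75 ± 0.13 in LFPKO livers (limma adjusted p at most 6.31e-04). The fall was smaller after scaling, at -0.66 over all libraries and -0.71, -0.85, -0.58 and -0.52 in the 4 genotypes, and stayed called (limma adjusted p at most 0.0111).

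For Acat1, Bdh1 and Slc16a6 the direction of the diet difference depended on the scaling, and for Bdh2 the call did. As deposited, 2 of 5 members were called for the diet, both lower, where 59.4% of all genes were called, 5907 (56%) lower and 363 higher, with a median over all genes of -0.21. Scaling brought that median to 0.00 and the split to 1982 lower and 1833 higher. Bdh2 went from -0.39 ± 0.09 (limma adjusted p = 0.0017) to -0.15 (limma adjusted p = 0.0915). Acat1 was at -0.12 ± 0.07 (limma adjusted p = 0.180) as deposited and at 0.14 after scaling (limma adjusted p = 0.0274). Bdh1 was at -0.12 ± 0.07 (limma adjusted p = 0.16) and at 0.13 after scaling (limma adjusted p = 0.0479), and Slc16a6 at -0.03 ± 0.09 and 0.16 (limma adjusted p = 0.823 and 0.144). Relative to the median of all genes, Bdh2 and Slc16a1 were thus lower and Acat1, Bdh1 and Slc16a6 higher on the high-fat diet under both scalings. Of the stellate markers, 6 of 8 tested were lower on the high-fat diet, where 56% of all genes were. They summed to 161 to 286 TPM in RD and 87.1 to 194 TPM in HFD libraries, and after scaling 2 of 8 were lower. Transcripts of the mitochondrial genome went the other way, with 8 of 13 higher and 0 lower (median 0.23, all genes -0.21). The part of these markers, of the mitochondrial transcripts and of the Mup share was not tested.

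By genotype, 2 of 5 members were called for the diet in WT livers (30.8% of genes), and 1 of 5, Slc16a1, in LFKO (9.45%), LPKO (18.1%) and LFPKO livers (26.3%). The second in WT livers was Bdh2, at 58.8% of its RD level (-0.70 ± 0.19, limma adjusted p = 0.0119), a call lost after scaling (-0.37, limma adjusted p = 0.115) and without RD WT replicate 3 or HFD WT replicate 2 (limma adjusted p 0.0710 and 0.0882). In LPKO livers Bdh2 was at -0.23 ± 0.19 (limma adjusted p = 0.385) and at 0.01 after scaling. Whether a knockout changed the diet response was tested as an interaction. Limma called 0 of 5 members for LFKO, LPKO or LFPKO, also at an unadjusted p under 0.05, with 0.00948%, 0.171% and 0.0284% of all genes called. For Bdh2 the interaction with LPKO was 0.47 ± 0.27 (95% interval -0.09 to 1.03, limma adjusted p = 0.698), and for Slc16a1 with LFKO 0.07 ± 0.18 (limma adjusted p = 0.886; -0.14 after scaling).

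Of the related thiolase and ligase genes, Acaa2, a thiolase of fatty acid oxidation (-0.58 ± 0.07), and Acat3 (-0.41 ± 0.08) were lower without PPARα, while Acss2, a cytosolic acetate-activating enzyme (0.82 ± 0.14), and the cytosolic thiolase gene Acat2 (0.28 ± 0.09) were higher (limma adjusted p at most 0.0306). Acat2 and Acat3 are related genes, so the division of reads between them is uncertain. Oxct1, the ketone-using enzyme of other tissues, was below 1 TPM on average and was not tested.

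Of the monocarboxylate transporter genes other than Slc16a1 and Slc16a6, with their partner genes, 7 of 16 were tested. Without PPARα, 2 rose and 2 fell (median -0.10), where 9.04% of all genes rose and 7.96% fell: Slc16a10, an aromatic amino acid transporter (0.50 ± 0.09), and Slc16a12, a creatine transporter (0.34 ± 0.08), rose, and Slc16a11 (-1.58 ± 0.15) and Slc16a5 (-0.94 ± 0.25) fell (limma adjusted p at most 0.0111). Bsg, whose protein basigin brings SLC16A1 to the membrane, was at -0.10 ± 0.06 (limma adjusted p = 0.299). On the high-fat diet 5 of the 7 were lower as deposited, where 56% of all genes were, and 3 after scaling, when 2 were higher. The 3 were Slc16a5 (-1.78 ± 0.25), Slc16a7 (-0.68 ± 0.15) and Bsg (-0.38 ± 0.06, limma adjusted p at most 6.42e-04; -1.60, -0.44 and -0.13 after scaling). The FoxO1 deletion raised Bsg (0.22 ± 0.06, limma adjusted p = 0.0329) and Slc16a11 (0.55 ± 0.15, limma adjusted p = 0.0428), 2 of 7 where 2.8% of all genes were higher, with 2 higher and 1 lower after scaling.

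The genes that supply acetyl-CoA by mitochondrial fatty acid oxidation fell together without PPARα: 12 of 14 were lower and 0 higher, where 7.96% of all genes were lower, with a median of -0.79, and 12 were lower after scaling. The largest were the carnitine carrier gene Slc25a20 (-1.98 ± 0.09), the carnitine palmitoyltransferase gene Cpt2 (-1.43 ± 0.08), Etfdh (-1.40 ± 0.06) and the acyl-CoA dehydrogenase gene Acadvl (-1.30 ± 0.06, limma adjusted p at most 6.44e-11). Cpt1a, whose product commits fatty acids to oxidation and which was named here after its value was seen, was at 0.00 ± 0.06 (limma adjusted p = 0.991). Genes of branched-chain amino acid breakdown, a pathway that also ends at ACAT1, were called about as often as all genes (17%): 1 of 14 was lower, Hsd17b10, which acts just before ACAT1 in isoleucine breakdown (-0.32 ± 0.07, limma adjusted p = 0.00232), and 1 higher, Acadsb (0.19 ± 0.05, limma adjusted p = 0.0167), with 3 lower and 1 higher after scaling.

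Of 13 genes known to control the pathway, 3 rose and 4 fell without PPARα, where 9.04% of all genes rose and 7.96% fell. Acacb, whose product blocks fatty acid entry into mitochondria, rose from 6.65 to 15.7 TPM (1.2 ± 0.11), and Ppara itself was higher (0.35 ± 0.07), while the fasting hormone gene Fgf21 fell from 2.76 to 0.161 TPM (-1.30 ± 0.12) and so did its regulator Creb3l3 (-0.55 ± 0.06; limma adjusted p for these 4 at most 0.00136). Pdk4, which spares pyruvate from oxidation, also rose (0.82 ± 0.17, limma adjusted p = 0.00163). Ppara is the targeted gene and its TPM may count transcripts of the deleted allele, so its rise is not read as regulation.

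The order of group means is given as a description. For Acat1 it ran from RD LFKO (180 TPM) to HFD LFPKO (83.7 TPM), and of 7 neighbours only RD LPKO and RD LFPKO had no overlap, a pair for which 16.6% of all genes had none. For Bdh1 it ran from RD LFKO (166 TPM) to HFD WT (103 TPM), with overlap between all neighbours. For Bdh2 it ran from RD LPKO (18.3 TPM) to HFD WT (8.67 TPM), with no overlap between RD LFKO and HFD LFKO, a pair for which 29.4% of all genes had none. For Slc16a1 the 4 RD groups came first and the 4 HFD groups after a gap, led in both diets by LPKO.

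Across the 24 libraries, Acat1 and Bdh1 ran alongside each other (Pearson r = 0.696 of log2(TPM + 1)), as did Bdh2 and Slc16a1 (0.669), while Acat1 and Bdh2 were at -0.275 and Acat1 and Slc16a1 at 0.028. These are descriptions of points that share groups and library totals. The tested genes most like Acat1 were Khdrbs3 (0.955), the acyl-CoA dehydrogenase gene Acad11 (0.954) and Oplah (0.949), and those most like Bdh1 were Cnpy3 (0.893), Nat9 (0.884) and the mitochondrial pyruvate carrier gene Mpc1 (0.865). Bdh2 ran most with Naglu (0.924), Nat8f1 (0.894) and Scamp1 (0.893), and Slc16a1 with Gm3776 (0.928), Csad (0.925), which makes hypotaurine on the way to taurine, and Dcaf12 (0.923). For Slc16a6 the closest genes were weaker matches, Ahsa2 (0.725), Pcgf3 (0.702) and Plcg1 (0.684).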

How the data were processed

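Per the labels' protocols, 24 mouse liver RNA samples were made into libraries with the TruSeq Stranded mRNA kit. The authors deposited gene TPM from kallisto, per the labels and the submitters' processing notes, which name the builds mm10 and GRCm38; for the kallisto version, annotation and strand setting: not given in the sources used here. TPM keeps no depth, so the depth of each library is unknown; the libraries summed to 956785 to 993524 TPM. In all, 1 line without a gene name (0.0104 to 0.0250% of the TPM) was left out.

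Of 34945 named genes, 10551 with a mean of at least 1 TPM, all 5 members among them, were tested on log2(TPM + 1) with limma 3.58.1 in R 4.3.3. A single fit of 8 group means with an intensity trend (16 residual degrees of freedom) gave 22 comparisons, two-sided, with Benjamini-Hochberg adjustment within each and calls at an adjusted p under 0.05. The steps were tested on simulated data. Tables and figures were made with Python 3.11.15, pandas 2.3.3 and matplotlib 3.10.9.

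The members and gene lists were chosen with earlier results of these data known. All members are described; of each other list, up to 4 tested genes with the smallest adjusted p were named, with any called gene against the list's main direction. Genes most like a member were the 3 with the highest Pearson r. The results were recomputed with a pseudocount of 0.1, without the filter, with a mean of at least 5 TPM, with median-of-ratios scaling, removal of Mup and mitochondrial-genome transcripts, a replicate block, the compared groups alone and leaving out each library. Fits of 1 diet and a fit without the LFKO groups were chosen after seeing the data. Part of the list of other ketone body genes is not reported here.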

Additional observations from a re-analysis of the deposited data

Results flagged for a closer look

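The effect of the FoxO1 deletion on Acat1 differed between livers with and without PPARα on the high-fat diet, by a test of the difference itself: the departure from additivity was -0.87 ± 0.21 (limma adjusted p = 0.0136). The call was lost without HFD WT replicate 2 (-0.75, limma adjusted p = 0.0505) and with the compared groups alone (limma adjusted p = 0.126), and 1109 of the 1179 genes called were lower (median of all genes -0.24). Acat1 was at 127 ± 19.0 TPM (SD, n = 3) in HFD WT, 178 ± 29.2 in HFD LFKO, 111 ± 25.8 in HFD LPKO and 83.7 ± 10.4 in HFD LFPKO livers. The Mup genes took 6.51 to 17.7% of the TPM in HFD LFKO libraries and 12.5 to 30.7% in the other HFD libraries; without Mup and mitochondrial-genome transcripts the departure was -0.43 (limma adjusted p = 0.0424). The part of the Mup share in the remaining difference was not tested.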

How the results depend on the processing

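For 54 named log2 fold changes, 334 of 382 refits under other settings and 559 of 600 refits without 1 library kept their direction and side of the threshold; 19 and 29 lost a call, 18 and 6 gained one, and 11 and 6 reversed. The cause was not tested. With median-of-ratios scaling and without Mup and mitochondrial-genome transcripts, the diet values became 0.14 and 0.16 for Acat1, 0.13 and 0.15 for Bdh1 and 0.16 and 0.19 for Slc16a6 (-0.0736 to 0.0176 without 1 library), and the LFKO-by-diet value of Slc16a1 -0.14 and -0.10 (-0.0293 to 0.20 without 1 library). Bdh2 in LPKO livers by diet was 0.00899 with scaling, Acat1 for FoxO1 -0.0215 without those transcripts, and Slc16a6 for PPARα -0.0116 in HFD libraries alone.

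Of the 5 members, under both of these scalings the number called went from 0 to 1 in RD LPKO against WT, from 1 to 3 in RD LFPKO against LFKO, from 2 to 0 in HFD LFKO against WT, from 1 to 2 in HFD LPKO and HFD LFPKO against WT and in LFPKO livers by diet, and from 2 to 1 in WT livers by diet; in HFD LFPKO against LFKO it went from 1 to 2 and 3, for PPARα from 3 to 4 (Bdh1 gained) and for the diet from 2 to 3 (Acat1 and Bdh1 gained as higher, Bdh2 lost). With the compared groups alone it was 1 in RD LPKO against WT, 2 in RD LFPKO against LFKO, and 0 in HFD LFKO, LPKO and LFPKO against WT and for HFD non-additivity. With no filter it was 1 in HFD LFKO and 0 in HFD LFPKO against WT, with a mean of at least 5 TPM 2 in HFD LPKO against WT, and in RD libraries alone 1 for PPARα. With the replicate block it was 1 in HFD LFKO against WT, and no other count of members changed; no comparison had all 3 same-numbered pairs correlated above 0.1 (range -0.23 to 0.387; all 3 were above 0 in some), so the numbers were not taken to pair them. Without 1 library the count ran from 0 to 2 in HFD LFKO against WT and HFD non-additivity, 0 to 1 in HFD LFPKO against LPKO, HFD LFPKO, HFD LPKO and RD LFPKO against WT and for FoxO1, 1 to 2 in WT livers by diet and 2 to 3 for PPARα.

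Of all genes, the number called changed by over 1.5 times with scaling for the diet (6270 to 3815), HFD LFKO against WT (1420 to 432; 199 without HFD WT replicate 2 and 3501 without HFD LFKO replicate 1), HFD non-additivity (1179 to 627), the diet in WT (3250 to 840), LPKO (1910 to 680) and LFPKO livers (2773 to 1384), RD LFKO (176 to 397), RD LPKO (617 to 996), RD LFPKO (786 to 1362), HFD LFPKO against WT (326 to 574), RD LFPKO against LFKO (536 to 866), HFD LFPKO against LPKO (37 to 130), and LFKO, LPKO and LFPKO by diet (1 to 2, 18 to 50 and 3 to 22). With the compared groups alone it was 140 for HFD LFKO, 147 for HFD LPKO and 165 for HFD LFPKO against WT, 267 for HFD LFPKO against LFKO, 130 for HFD non-additivity, 432 and 1242 for the diet in LFKO and LFPKO livers, 431 for RD LFKO against WT, 74 for RD non-additivity, 8 and 5 for RD and HFD LFPKO against LPKO, and 4 and 0 for LFKO and LFPKO by diet. Without 1 library it ran from 431 to 2611 for HFD non-additivity, 551 to 2438 for HFD LFPKO against LFKO, and 920 to 3590, 326 to 1377, 576 to 1697 and 1307 to 2911 for the diet in WT, LFKO, LPKO and LFPKO livers, 198 to 889 for HFD LPKO, 77 to 173 for RD LFKO, 312 to 501 for RD LPKO and 417 to 645 for RD LFPKO against WT, 278 to 445 for RD LFPKO against LFKO, 8 to 283 for HFD LFPKO against LPKO, and 285 to 816 for FoxO1. With a mean of at least 5 TPM it was 97 for RD LFKO against WT, 14 for RD non-additivity and 4 and 21 for RD and HFD LFPKO against LPKO, with a pseudocount of 0.1 it was 16 for RD non-additivity and 8 for RD LFPKO against LPKO, and for LPKO by diet it was 8 with the replicate block and 10 with no filter. For PPARα it was 1794 in all, 1251 in RD and 683 in HFD libraries, and for FoxO1 416, 123 and 41. Without depth, counting error could not be separated from other spread, which bears most on Slc16a6 at 1.76 to 4.62 TPM.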
